A study of Macaca fascicularis with 24 samples.

Results

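The libraries described here are the 8 that come from punch number 2 of 8 cynomolgus macaques (Macaca fascicularis), out of 24 brain punch libraries in the series. Within the series they are found by 2 labels, the punch number and the siRNA treatment, with 4 libraries labelled Non-treated (animals 1 to 4) and 4 labelled Treated (animals 5 to 8). Below, animals are numbered within their group, so treated animals 1 to 4 are animals 5 to 8. Punch 2 was singled out with the data known, as the number that holds neither of the 2 libraries with the largest share of reads in a few genes. Each animal gave 1 library here, so the animal is the replicate. Treated animals had received a divalent siRNA (Di-siRNA) against the Huntingtin gene. The labels name no control siRNA, no vehicle, no dose, no time after dosing, no age or sex and no brain region for a punch, so the effect of silencing and that of the dosing cannot be told apart. Polyadenylated RNA was sequenced from each frozen punch, with stranded libraries, and the values are reads counted per gene.

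A small interfering RNA is a short double-stranded RNA. One strand is loaded into an Argonaute protein, which then cuts transcripts that pair with that strand along its length, and can also lower others that pair with its seed alone. In a divalent siRNA a pair of such duplexes is joined by a linker, a form made for wide spread and long retention in brain. Huntingtin is the gene whose expanded CAG repeat causes Huntington's disease, and it is transcribed broadly in the brain.

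The files give Ensembl gene IDs without names. None of the 29324 IDs could be paired with a symbol, so Huntingtin itself, gene lists for RNA interference, interferon response and striatal neurons, and markers of brain cell types were not analysed here. The labels and the tissue were therefore not checked against the level of the target or of cell type markers. In bulk tissue, fewer cells of a type and less RNA per cell cannot be told apart. No siRNA, guide strand or transcript sequence was in the sources used here, and none is shown.

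The 8 libraries held 8241620 to 13201858 counted reads. Depth overlapped between the groups, at 8241620, 11038388, 12360591 and 12739318 reads in non-treated animals and 9628025, 10099225, 11328803 and 13201858 in treated animals. The libraries of non-treated animal 2 and treated animal 1 had reads in fewer genes than the others, 15946 and 16302 against 16846 to 17268. The counts of changed genes are given below or in the closing section without these libraries too. No pair of the 8 was close enough to be 1 library deposited again, since chi-square over degrees of freedom was at least 9.57 in the 28 pairs.

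The groups differed in how the reads were spread over genes. In punch 2, 11 genes each held over 1% of all reads. Together they took 46.4%, 41.1%, 40.8% and 39.7% of the reads in non-treated animals 1 to 4, and 28.6%, 25.8%, 29.8% and 30.0% in treated animals 1 to 4. Every treated library lay below every non-treated library, with a gap between 30.0% and 39.7%. The 95% Wilson intervals of these shares were at most 0.067 percentage points wide, so counting error was small beside the spread between animals. The group means were 42.0 ± 3.01% and 28.5 ± 1.94% (SD, n = 4 each), which puts treated animals at -13.5 percentage points. Punch 2 was chosen for holding no library with an extreme share of this kind, so these shares are a description and no test of them is given. In the other punch numbers the same 11 genes took 38.4% to 44.9% of reads in non-treated and 28.5% to 54.5% in treated animals (punch 1), and 35.2% to 76.2% and 26.0% to 32.1% (punch 3). The groups overlapped in punch 1, where treated animal 1 was above all non-treated animals, and did not overlap in punch 3, where non-treated animal 1 was at 76.2%. The labels give no RNA quality for any punch, and its part in these shares was not tested.

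The same spread can be seen in how few genes held 50% of a library. It took 16, 57, 60 and 68 genes in non-treated animals 1 to 4, and 213, 280, 198 and 207 genes in treated animals 1 to 4. The groups did not overlap, and non-treated animal 1 had the most concentrated library. The number of genes with a read overlapped between the groups, at 15946 to 17010 in non-treated and 16302 to 17268 in treated animals. Without the 2 libraries that had reads in fewer genes, the groups did not overlap. The values were then 16846 to 17010 in non-treated and 17202 to 17268 in treated animals. Those libraries were set aside for this same measure, so these values are a description.

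The 11 abundant genes did not fall by equal amounts. All 11 had a lower mean share of reads in treated animals, by 19.0% to 59.7% of the non-treated value. The gene with most reads went from 5.98%, 5.40%, 4.78% and 4.85% of reads in non-treated animals to 4.37%, 4.48%, 4.16% and 4.01% in treated animals, the smallest relative difference of the 11. The abundant gene with fewest reads went from 1.70%, 1.67%, 1.93% and 1.79% to 0.553%, 0.548%, 0.930% and 0.832%, the largest. The groups did not overlap in either. As shares of reads, the groups overlapped in the genes ranked 6 and 10 by reads and in no other of the 11. The names and functions of these genes were not used here.

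**Figure D1:**
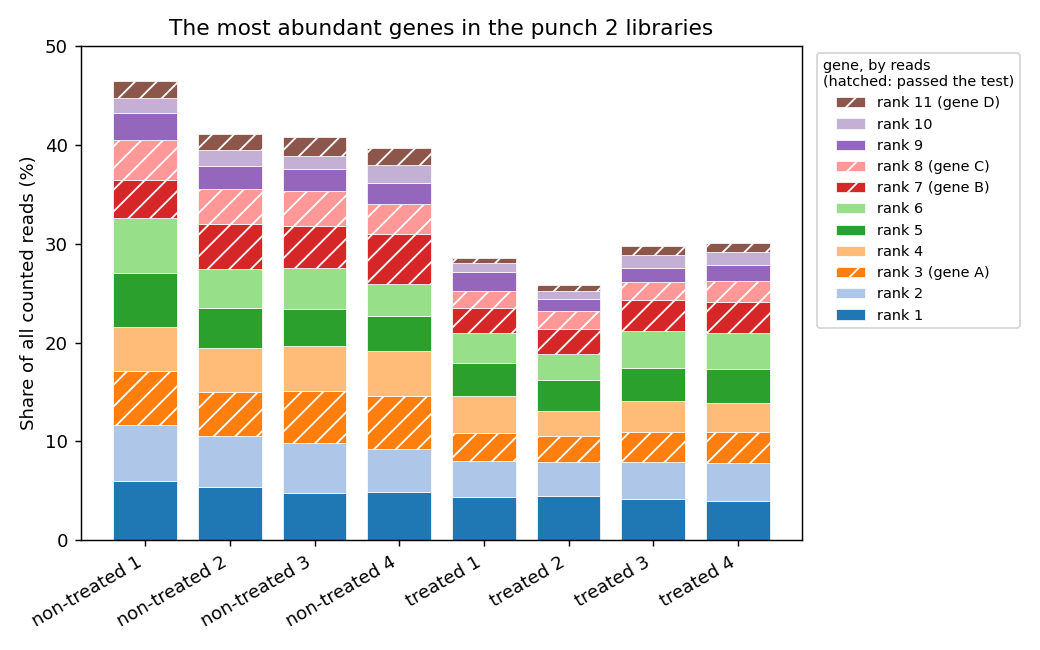
Share of all counted reads (%, vertical axis) held by each of the 11 abundant genes in each punch 2 library, stacked in order of reads with the highest at the bottom; hatching marks the 4 genes that passed the edgeR test. The stacks reach 39.7% to 46.4% in non-treated and 25.8% to 30.0% in treated animals.

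Which single genes differed was asked with edgeR's quasi-likelihood test on the 8 libraries. Levels are given in CPM, the reads of a gene scaled to 1 common library total, after TMM scaling, a factor that lines libraries up on the bulk of their genes. Of 13194 genes tested, 15 passed a Benjamini-Hochberg adjusted p of 0.05 (0.114%). Of these, 13 were lower in treated animals (0.0985% of genes tested) and 2 were higher (0.0152%). The balance of directions rests on the scaling: with library size alone, 1054 genes passed, 1002 higher and 52 lower, and the median over all genes moved from -0.01 to 0.29 on the log2 scale. Without both libraries that had reads in fewer genes, library size alone gave 675 genes, 618 higher and 57 lower. The sources used here give no spike-in or other measure of total RNA per punch, so these data do not tell which scaling holds. The TMM factors themselves did not overlap, at 0.86 to 0.932 in non-treated and 1.07 to 1.19 in treated libraries. Changes below are thus relative to the bulk of genes. All 15 kept their direction under TMM, RLE, upper-quartile and library size scaling. With library size alone 14 of the 15 still passed. The gene that did not is gene F below, at -0.43 on the log2 scale (edgeR adjusted p = 0.0536).

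The smallest p belonged to ENSMFAG00000036776, a gene of modest level. It stood at 15.8, 13.3, 19.7 and 18.7 CPM in non-treated animals 1 to 4 and at 4.46, 4.74, 4.39 and 4.80 CPM in treated animals 1 to 4. The treated animals were close to each other and far below all non-treated animals, which were more spread. Its mean of 16.9 ± 2.88 CPM in non-treated animals was 72.7% lower in treated animals, at 4.60 ± 0.203 CPM (SD, n = 4 per group). The log2 fold change was -1.88, with an SE of 0.191 and an edgeR adjusted p of 0.00291. These levels rest on 98 to 229 reads in non-treated and 49 to 74 in treated libraries. Counting error at 49 to 74 reads is wider than the spread of the treated values. Their closeness is thus no measure of the spread between treated animals.

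ENSMFAG00000030190 had a larger fold change at a lower level. Its values were 5.17, 8.01, 5.93 and 6.78 CPM in non-treated animals and 0.909, 1.09, 1.24 and 1.32 CPM in treated animals. The groups were wide apart, although the treated values came from only 10 to 17 reads a library. The mean fell 82.4%. The fitted log2 fold change was -2.49 with an SE of 0.282 (edgeR adjusted p = 0.00389).

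The 2 genes that rose were less firm. ENSMFAG00000033464 stood at 6.22, 6.79, 6.44 and 7.13 CPM in non-treated animals and at 11.5, 16.9, 16.7 and 15.2 CPM in treated animals. It rose 2.27-fold, with treated animal 1 the lowest of its group (1.18 on the log2 scale with an SE of 0.187, edgeR adjusted p = 0.0267). ENSMFAG00000037799 stood at 0.422, 0.407, 0.859 and 0.174 CPM in non-treated animals, which is 2 to 10 reads a library. In treated animals it stood at 4.18, 4.23, 1.66 and 4.61 CPM, or 20 to 66 reads. Treated animal 3 lay far below the other treated animals but above every non-treated animal. Its log2 fold change of 2.93 had an SE of 0.487 (edgeR adjusted p = 0.0406), and the non-treated values were close to the limit of what these depths can count.

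The other 11 genes that passed all fell, and are lettered A to K by falling mean level. Genes A to D are 4 of the 11 abundant genes, and gene E lies just outside them, with 0.995% of all reads where gene D has 1.25%. Gene A went from 63126, 49616, 57057 and 57506 CPM in non-treated animals to 26148, 22432, 28005 and 28248 CPM in treated animals (-1.12 on the log2 scale with an SE of 0.134, edgeR adjusted p = 0.00389). Gene D went from 19802, 18663, 21170 and 19272 CPM to 5076, 4628, 8731 and 7540 CPM (-1.60 on the log2 scale with an SE of 0.191, edgeR adjusted p = 0.00389). In gene D treated animals 1 and 2 were lower than treated animals 3 and 4, while the 4 non-treated animals were close to each other. Genes B, C and E had log2 fold changes of -0.95, -1.24 and -0.95, with edgeR adjusted p of 0.0233, 0.00389 and 0.0133.

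Genes F to K were expressed at middle levels, with means of 29.9 to 123 CPM over the 8 libraries. Gene K went from 43.5, 64.1, 32.3 and 48.3 CPM in non-treated animals to 9.91, 11.0, 11.9 and 18.2 CPM in treated animals (-1.88 on the log2 scale with an SE of 0.233, edgeR adjusted p = 0.00446). Gene J went from 47.4, 60.8, 30.0 and 64.6 CPM to 21.5, 12.4, 12.3 and 7.16 CPM (-1.93 on the log2 scale with an SE of 0.303, edgeR adjusted p = 0.0267). Non-treated animal 3 was the lowest of its group in both genes, yet above every treated animal. Genes F, G, H and I had log2 fold changes of -0.74, -0.90, -1.51 and -1.66, with edgeR adjusted p of 0.0406, 0.0267, 0.0234 and 0.0181. In each of the 15 genes the treated and non-treated animals did not overlap, which is read beside the 840 of 13194 genes (6.37%) where this was so. Genes A to D are among the abundant genes whose share bears on the choice of punch 2, and gene E is next to them in level, so their calls are not independent of that choice.

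**Figure D2:**
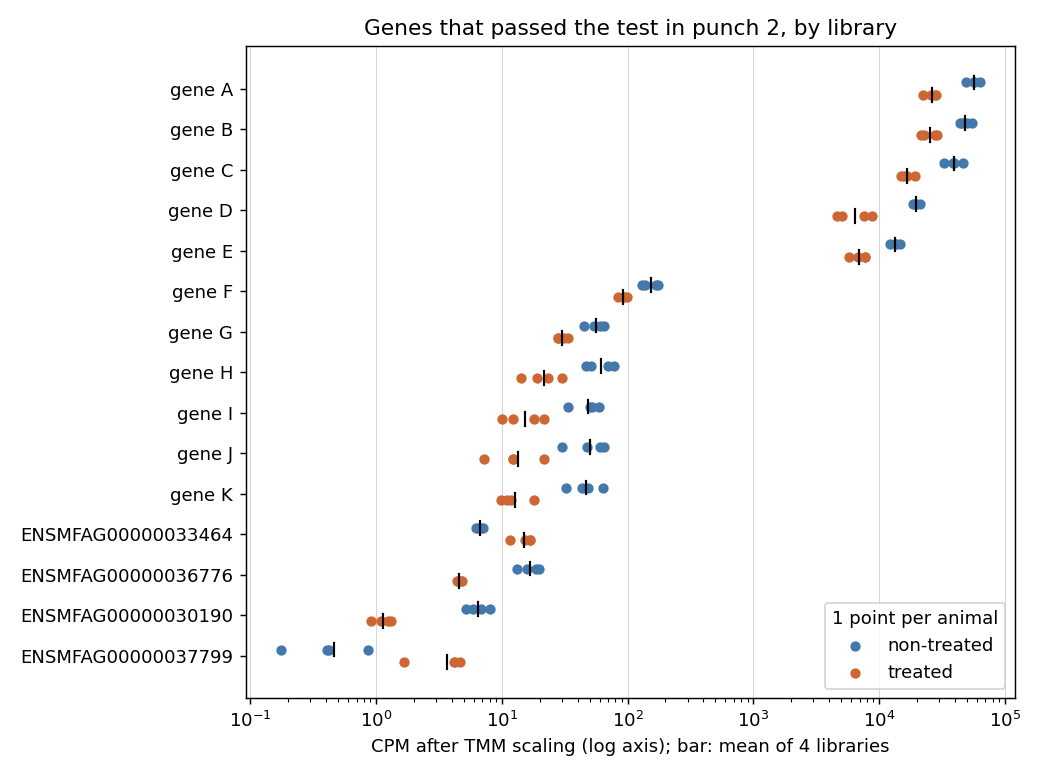
CPM after TMM scaling (horizontal log axis) of the 15 genes that passed the test in punch 2, 1 point per animal and a black bar at each group mean of 4. The groups lie apart in every gene, with treated animals lower in 13 and higher in ENSMFAG00000033464 and ENSMFAG00000037799.

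These 15 calls were not equally robust to the choice of animals. In ENSMFAG00000036776, ENSMFAG00000030190 and genes A, C, D and K the edgeR adjusted p stayed under the threshold in all 8 fits that left out 1 animal, with a largest value of 0.0310. In a limma-voom fit of all 24 libraries with a within-animal correlation, which includes the 2 libraries with the largest share of reads in a few genes, ENSMFAG00000036776 and genes G, I and K kept their call. The others lost it there, among them ENSMFAG00000030190 and genes A, C and D, at limma adjusted p of 0.0820, 0.375, 0.294 and 0.150. Gene E lost its call in 2 of the 8 fits, genes B and I in 3, gene H in 4 and genes G and J in 5. ENSMFAG00000037799 lost its call in 5 of the 8 fits, and ENSMFAG00000033464 and gene F in 6. The total fell to 6 genes when non-treated animal 4 was left out, to 8 for treated animal 3, and to 9 for each of non-treated animals 1 and 2 and treated animal 2. It rose to 39 when non-treated animal 3 was left out and to 52 for treated animal 1, and was 14 for treated animal 4. Without both libraries that had reads in fewer genes it was 27, of which 11 were among the 15. The cause of these shifts was not tested.

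The genes tested in punch 2 were also grouped by mean level. The highest class holds the abundant genes whose share bears on the choice of punch 2. The classes were also chosen after the values were seen, so what follows is a description. All 12 genes at a mean of 10000 CPM or more, which are the 11 abundant genes and gene E, were lower in treated animals, with a median log2 fold change of -0.88 and 5 calls. The highest class stands apart in its counts from the next: of 57 genes at 1000 to 10000 CPM, 0 passed, and their median was 0.10. In the 1303 genes at 100 to 1000 CPM the median was 0.06 with 1 call. It was -0.000365 with 7 calls in the 6318 genes at 10 to 100 CPM and -0.06 with 2 calls in the 5261 genes at 1 to 10 CPM, and 0 of the 243 genes under 1 CPM passed. With library size alone in place of TMM, the median was -0.58 in the 12 genes and 0.21 to 0.40 in the lower classes. A change of scaling moves all classes by about the same amount, so the distance between them is fixed by its construction. Without both libraries that had reads in fewer genes, 12 genes were at this level and all were lower, with 4 calls. Over all genes tested the groups did not overlap in 470 genes that were lower (3.56%) and in 370 that were higher in treated animals. Without both libraries it was 2664 of 13390 genes in either direction (19.9%), with 3 animals a group. With fewer animals a group, lack of overlap is more frequent by chance, so this share is not comparable with that of all 8 libraries.

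**Figure D3:**
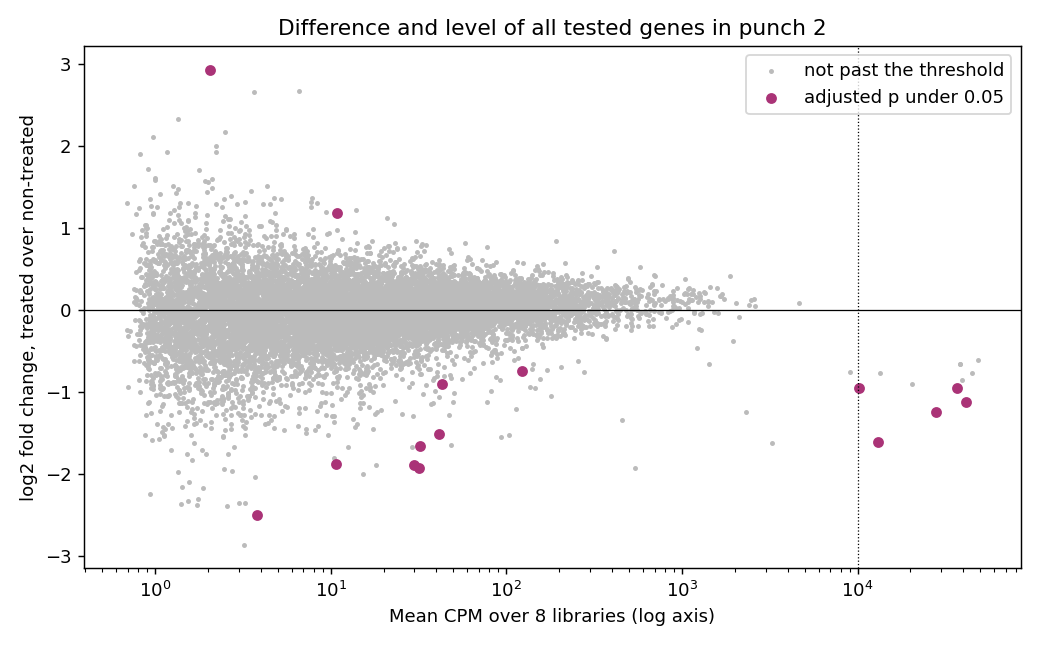
Log2 fold change of treated over non-treated animals (vertical axis) against mean CPM over the 8 libraries (horizontal log axis) for all 13194 genes tested; large points are the 15 that passed, and the dotted line marks 10000 CPM. The 12 genes at or right of the line all lie below 0.

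The 8 libraries limit how small a change could be seen. The common biological coefficient of variation, the spread between animals of a group as a share of the mean, was 22.1%. A 2-fold change in either direction lay outside the unadjusted 95% interval of 9780 genes (74.1%), and a 4-fold change outside that of 12874 genes (97.6%). This share depended on level: for 2-fold it was 97.9% at 100 to 1000 CPM, 92.9% at 10 to 100 CPM and 48.9% at 1 to 10 CPM. At an unadjusted p of 0.05, 1443 genes passed, 596 higher and 847 lower, and without both libraries that had reads in fewer genes 1796 passed, 852 higher and 944 lower. No gene was a switch between the groups, since 0 genes had 10 or more reads in each library of 1 group and none in the other group.

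Whether these differences were particular to punch 2 was tested within animals over all 24 libraries. Punches 1 and 3 hold the 2 libraries whose absence led to the choice of punch 2. This contrast is thus not independent of that choice. The treatment effect in punch 2 was set against the mean of the effects in punches 1 and 3. In edgeR, animal and punch number were terms, and 0 of 14054 genes (0%) passed. By this edgeR fit 265 had an unadjusted p under 0.05, and the smallest adjusted p was 0.866. A limma-voom fit had a within-animal correlation in place of the animal term. There 0 passed, with 330 at an unadjusted p under 0.05. Without both punch 2 libraries that had reads in fewer genes, edgeR gave 0 of 14247, with 208 at an unadjusted p under 0.05. Without the 2 libraries of the series with the largest share of reads in a few genes, it gave 0 of 14228, with 475. Each of these counts is under a 0.05 share of the genes tested and is not read as a signal. Among the 15 genes the smallest unadjusted p belonged to gene F, whose log2 fold change was lower in punch 2 by 0.42 (difference -0.42, SE 0.158, unadjusted p = 0.0145), and to gene J (difference -0.86, SE 0.380, unadjusted p = 0.0353). ENSMFAG00000030190 (difference -0.73, SE 0.491), gene H (-0.52, SE 0.367) and ENSMFAG00000037799 (0.51, SE 0.679) differed by more than gene F but with larger errors. The edgeR adjusted p of genes F and J was 1.00 in both, so neither is called particular to punch 2. A p that misses the threshold does not show that the effects were alike. In genes A to E the difference was -0.02 to 0.05, with an SE of 0.461 to 0.494. Their effects in punches 1 and 3 were moved in opposite directions by 1 library each, which the mean of both hides. These libraries are non-treated 1 punch 3 and treated 1 punch 1, the 2 of the series with the largest share of reads in a few genes. In a fit without them the difference in genes A to E was -0.17 to -0.13, with an SE of 0.168 to 0.192.

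The values in the other punches come from the same animals, so they are given side by side and are no independent support. ENSMFAG00000036776 had a log2 fold change of -2.02 (95% interval -2.48 to -1.56) in punch 1 and -2.15 (-2.82 to -1.48) in punch 3, close to the -1.88 (-2.29 to -1.46) of punch 2. Gene K stood at -1.90 in punch 1 and -1.43 in punch 3, and gene G at -0.78 and -0.79. ENSMFAG00000033464 stood at 0.97 and 1.43, and ENSMFAG00000037799 at 2.89 and 1.99, both positive in each punch number. ENSMFAG00000030190 stood at -2.15 in punch 1 and at -1.44 in punch 3, where the interval of -3.10 to 0.23 reached past 0.

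In genes A to E the values of punches 1 and 3 turned on 1 library each. Gene A had a log2 fold change of -0.39 (95% interval -1.23 to 0.45) in punch 1, -1.12 (-1.41 to -0.83) in punch 2 and -1.99 (-3.39 to -0.60) in punch 3. With treated animal 1 left out it was -1.02 (-1.43 to -0.60) in punch 1, and with non-treated animal 1 left out it was -0.99 (-1.43 to -0.55) in punch 3. Genes B, C, D and E stood at -0.33, -0.50, -1.10 and -0.17 in punch 1 with all 8 libraries, and at -1.78, -2.16, -2.49 and -1.79 in punch 3. The punch 1 intervals of genes B, C and E reached past 0 (-1.11 to 0.45, -1.29 to 0.30 and -1.05 to 0.72). With those libraries left out they stood at -0.86, -1.09, -1.51 and -0.90 in punch 1 and at -0.88, -1.15, -1.53 and -0.80 in punch 3. These libraries were left out for their large share of reads in a few genes, which includes genes A to D, so these values are a description. Genes F, H and J had their smallest differences in punch 1, at -0.29, -0.53 and -0.54, with intervals that reached past 0 (-0.71 to 0.13, -1.56 to 0.50 and -1.46 to 0.38). In punch 3 gene F stood at -0.35 (-0.62 to -0.08).

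**Figure D4:**
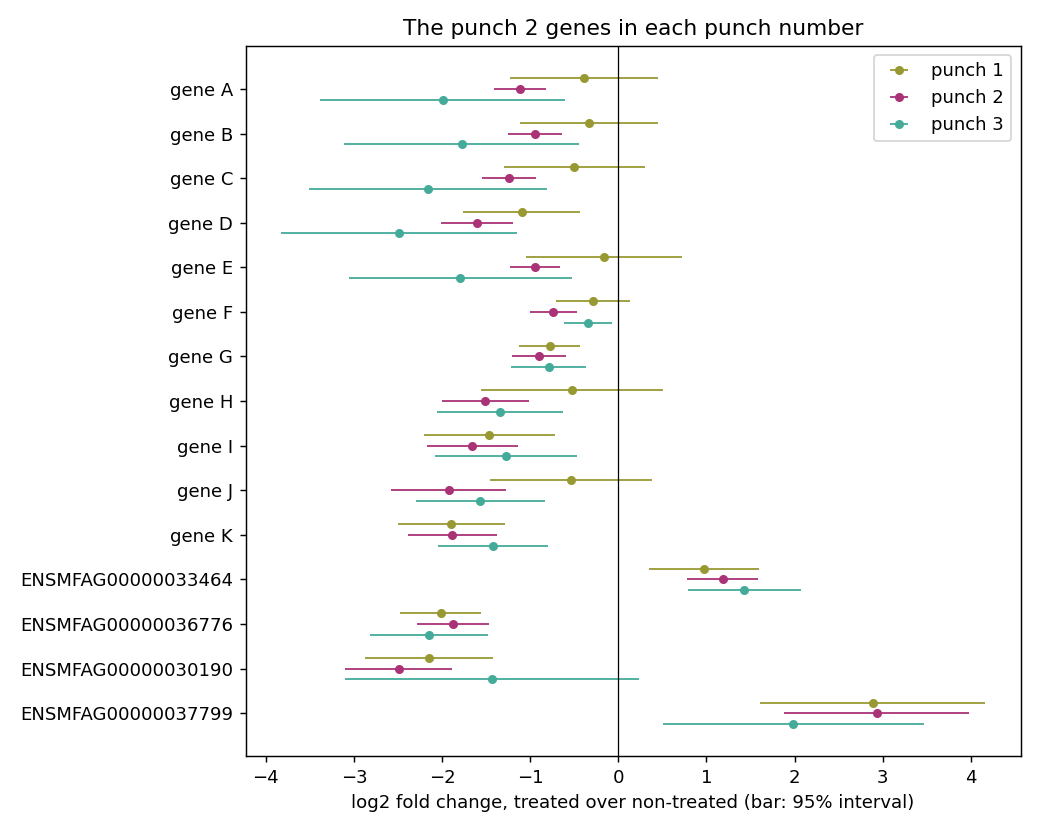
Log2 fold change of treated over non-treated animals (horizontal axis, bars are unadjusted 95% intervals) for the 15 genes in punches 1, 2 and 3, each punch number fitted alone with all 8 of its libraries. All 15 genes keep their sign in each punch number, and each of genes A to E has its widest interval in punch 3.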

How the data were processed

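Each library has 1 deposited file of raw counts for 29324 Ensembl IDs, with 0 rows that name no gene. The submitters' processing notes list STAR 2.5.3a and HTSeq 0.10.0, and genome build and annotation are not stated there. Per the labels' protocols, libraries were stranded and made from polyadenylated RNA, and no molecular identifiers are named, so the Wilson intervals of shares cover counting error only. The gene name table at hand (RefSeq, 40596 entries, 0 with an Ensembl ID) matched 0 IDs.

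The 8 punch 2 libraries were analysed alone, never summed with other punches. Genes were kept with filterByExpr (minimum count 10), scaled by TMM and tested with edgeR 4.0.16 in R 4.3.3, with limma 3.58.1 and DESeq2 1.42.0 as alternatives. The SE is the log2 fold change over the square root of F, and its 95% interval uses the fit's degrees of freedom and covers the spread between animals. The exact permutation test planned for shares of reads is not given, since such shares bore on the choice of punch 2. By edgeR the effect in punch 2 was set against the other punches in 1 model of 24 libraries with animal as a term. The limma-voom alternative had a within-animal correlation instead. Scripts were tested on simulated data.

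The libraries, gene classes and tests were chosen with earlier results of these data known. Genes with an ID here passed the test, had a mean of at least 1 CPM and no overlap, and were the first 2 by p in each direction. Level classes were chosen after the values were seen. Replicate numbers 1 to 4 in the titles belong to different animals and do not pair them.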

Additional observations from a re-analysis of the deposited data

Results flagged for a closer look

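Of 42 groups of 4 values examined (library measures and the 15 changed genes, in each treatment group), 3 held 1 value well away from the rest. About 2.1 would be flagged by chance if the groups were independent and not selected. The 15 genes were selected by a test on these same libraries, so this number is only a rough guide. In genes with a read, non-treated animal 2 had 15946 where the other non-treated libraries had 16846 to 17010, and treated animal 1 had 16302 where the other treated libraries had 17202 to 17268. Non-treated animal 2 also had the fewest reads of the 8, while treated animal 1 did not; the part of depth in either value was not tested. ENSMFAG00000037799 was at 1.66 CPM in treated animal 3 where the other treated animals had 4.18 to 4.61 CPM. Without that animal its log2 fold change stayed positive.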

How the results depend on the processing

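Against 15 changed genes by edgeR, there were 1054 with library size alone, 182 with DESeq2 (44 higher and 138 lower, with 5040 adjusted p-values missing), 58 with no filter, 54 at an adjusted p of 0.1, 27 without both libraries that had reads in fewer genes, 9 without the abundant genes and 5 with all 24 libraries and a within-animal correlation. Genes A to D are among the abundant genes, so they could not be called without these. ENSMFAG00000037799 and gene F lost their call in that fit (edgeR adjusted p = 0.0563 and 0.0721). Leaving out each animal gave 6 to 52. RLE, upper-quartile, limma-voom and the filter of 1 CPM in 4 libraries gave 15 to 18. With the number in the titles as a replicate block 19 genes were called, 11 of them among the 15; same-numbered animals had correlations of 0.0302, -0.123, 0.194 and -0.168, and number 3 alone correlated best with its own. All 15 genes kept their direction in every fit that held them; with 24 libraries ENSMFAG00000036776 and genes G, I and K stayed past the threshold. The difference in share, -13.5 points, was -11.8 with medians and -13.8 without both libraries; with other gene cuts it was -14.2 to -11.2, with genes chosen on punches 1 and 3 it was -13.9, and without each animal -14.2 to -12.0. The punch 2 effect against the others gave 0 genes in each of the 13 alternatives. The fits without the library that stands apart in punches 1 and 3, and the other counts without both libraries, were chosen after seeing the data. Planned gene lists and markers were not run.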

Other observations

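A few genes were read in some animals and nearly missing in others of the same group. There were 10 genes whose punch 2 libraries fell into 2 kinds only, those with at least 50 reads and those with at most 2. In 0 of the 10 were all animals of 1 group of the first kind and all of the other group of the second. In one of them 5 animals had 132 to 290 reads, 2 non-treated and 3 treated, and the other 3 had 0. In another 1 non-treated animal had 260 reads and the other 7 animals had 0. Some of the 10 had at least 50 reads only in animals of 1 group. These genes were picked for this pattern and no test was run on them, so a relation to treatment was not tested.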
